A study of Mus musculus with 8 samples.

Results

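The Nrf2 antioxidant response was followed through 10 genes in livers of WT mice and of mice lacking miR-33 in hepatocytes (HKO). The 10 genes were chosen by name, as the rows of the deposited gene table with the symbols Nfe2l2, Keap1, Nqo1, Hmox1, Gclc, Gclm, Txnrd1, Srxn1, Gpx1 and Gpx4, out of 17810 genes listed. The choice was made with earlier results of these data known. All 10 passed the filter on low counts, which left 12395 genes tested. RNA-Seq was performed on 4 WT and 4 HKO livers, 1 library per liver. WT and HKO littermates, all male, were given CD-HFD, a diet high in fat and without added choline, from 8 weeks of age for 3 months and were 5 months old at collection, so both genotypes carry the effect of the diet. HKO mice have floxed miR-33 alleles and Cre recombinase under the albumin promoter (AlbCRE), which is active in hepatocytes. In which cells of these livers miR-33 was lost was not measured here. Whether the WT littermates carry floxed alleles is not stated in the sources used here.

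Nrf2, the protein of Nfe2l2, is a transcription factor that is held in the cytoplasm and sent for degradation by Keap1. When electrophiles or oxidants modify Keap1, Nrf2 escapes, enters the nucleus, pairs with a small Maf protein and binds antioxidant response elements near genes for detoxification, glutathione synthesis and the thioredoxin system. In the liver this programme is best known for the handling of drugs and oxidative stress. Of the 10 genes, Gpx1 and Gpx4 encode selenium-dependent peroxidases of the antioxidant defence and are less firmly tied to Nrf2 than Nqo1, Gclc, Gclm, Txnrd1 and Srxn1.

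The guide strand of the deleted microRNA, miR-33-5p, is shown because it marks the genotype. It lies at chr15:82198127-82198147 on the plus strand of GRCm38.p6 in RefSeq, and the capitals mark its seed, bases 2 to 8.
mmu-miR-33-5p: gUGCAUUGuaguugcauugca
A DNA match on the strand of the transcript, either CAATGCA (to the whole seed) or AATGCAA (to bases 2 to 7, followed by A), was found once in the longest annotated 3'UTR of Gclm (4335 bases) and once in that of Txnrd1 (1667 bases), and in none of the other 8 members. The annotated Gclm gene ends at base 122270732, past the end of the counted gene at base 122267215. On which side of that end the Gclm match lies was not examined. Of 11600 genes tested with an annotated 3'UTR, 16.1% held such a match. Their median 3'UTR was 1191 bases, shorter than those of Gclm and Txnrd1. A match is a run of letters and not a measured site.

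The core of the antioxidant response element, TGACNNNGC on either strand, was searched in the RefSeq promoter windows of GRCm38.p6, which run from 250 bases before to 50 bases after a start site. The table held 13 windows for 8 members, since some have several start sites, and none for Gclc or Hmox1. The letters occurred in 4 of the 13 windows, 1 each for Nfe2l2, Gclm, Txnrd1 and Srxn1, beside 12.4% of 32851 promoters in the table. These 4 stretches are shown with 10 bases on each side and the motif in capitals, read along the strand of the gene, because Nrf2 is known to bind such elements; they are letter matches and not measured binding sites.
Nfe2l2, minus strand, chr2:75704885-75704913, motif from -240 to -232: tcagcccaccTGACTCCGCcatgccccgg
Gclm, plus strand, chr3:122245413-122245441, motif from -134 to -126: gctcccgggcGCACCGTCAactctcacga
Txnrd1, plus strand, chr10:82859104-82859132, motif from -92 to -84: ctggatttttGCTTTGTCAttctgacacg
Srxn1, plus strand, chr2:152105542-152105570, motif from 29 to 37: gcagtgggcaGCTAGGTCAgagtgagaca
The stretches of Gclm, Txnrd1 and Srxn1 hold the motif on the strand opposite to the gene. The 250 bases before the start of the gene with the largest fold change over all livers, Nqo1, and of the gene with the smallest adjusted p, Srxn1, are shown in full. Neither holds the motif as spelled, which says nothing about elements of another spelling or elsewhere. The Srxn1 stretch holds TGAGTCAGC, which has G where the searched motif has C, and such spellings were not searched for.
Nqo1, minus strand, chr8:107403206-107403455: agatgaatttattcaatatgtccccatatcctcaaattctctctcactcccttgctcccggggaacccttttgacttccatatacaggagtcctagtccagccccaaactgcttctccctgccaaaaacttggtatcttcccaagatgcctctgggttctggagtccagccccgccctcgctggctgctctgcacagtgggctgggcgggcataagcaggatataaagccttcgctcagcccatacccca
Srxn1, plus strand, chr2:152105274-152105523: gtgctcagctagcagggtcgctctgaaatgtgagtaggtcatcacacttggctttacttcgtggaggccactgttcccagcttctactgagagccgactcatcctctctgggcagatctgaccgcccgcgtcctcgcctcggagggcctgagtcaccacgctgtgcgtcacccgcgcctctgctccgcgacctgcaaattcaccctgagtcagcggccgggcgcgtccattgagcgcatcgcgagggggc

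The libraries held 12174339 to 18735785 estimated counts, and 3 counts corresponded to 0.149 to 0.255 CPM (counts scaled to a common library size, with TMM factors). HKO libraries came before all WT libraries in the order numbers of the table, so the effects of genotype and of place in this order cannot be told apart. The summed CPM of 6 hepatocyte markers was 76000 to 110000 in WT and 65900 to 120000 in HKO livers, and 3 of them were higher in HKO livers (Cps1, Hnf4a and Serpina1a). Of the other marker lists, 2 of 7 stellate cell genes (Col1a1 and Col3a1; summed CPM 371 to 530 in WT and 301 to 414 in HKO livers) and 2 of 3 tested genes of monocyte-derived and lipid-associated macrophages (Ccr2 and Gpnmb; 40.1 to 50.9 and 28.1 to 68.0) were lower in HKO livers. The summed level of 5 T cell markers was low, at 0.661 to 2.29 CPM in WT livers and 2.38 to 4.32 CPM in HKO livers, without overlap; 1 of them, Cd4, was expressed highly enough to be tested, and DESeq2 called it higher while edgeR did not. The second HKO liver stood apart with a summed cholangiocyte marker level of 47.8 CPM, against 6.56 to 16.6 CPM in the other livers. The part of these cell types in the differences below was not tested, and in whole liver fewer cells of a type and less RNA per cell cannot be told apart. P-values measure only the spread between these livers.

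In HKO livers, Srxn1, Gpx4, Gclc and Nfe2l2 were lower than in WT livers, and no member was higher. By the quasi-likelihood test of edgeR, with p-values adjusted over all genes by the Benjamini-Hochberg method, 4 of 10 members passed an adjusted p under 0.05 as lower and 0 as higher. At an unadjusted p under 0.05 the counts were 6 and 0, beside 10.7% of all genes as lower and 9.08% as higher. At the adjusted threshold 5.03% of all genes tested passed in either direction, 3.37% as lower and 1.66% as higher. DESeq2 called 5 members lower, beside 5.09% of all genes, and limma-voom called 5, beside 3.24%; in both cases the fifth was Nqo1, and neither called a member higher. In 6 of 10 members every HKO liver lay below every WT liver, a pattern that 7.19% of all genes tested showed. The log2 fold change was below 0 in 9 of 10 members, beside 48.4% of all genes, and its median was -0.32 over the members and 0.009 over all genes. Txnrd1, Gclm and Gpx1 had log2 fold changes between -0.09 and 0.05.

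**Figure D1:**
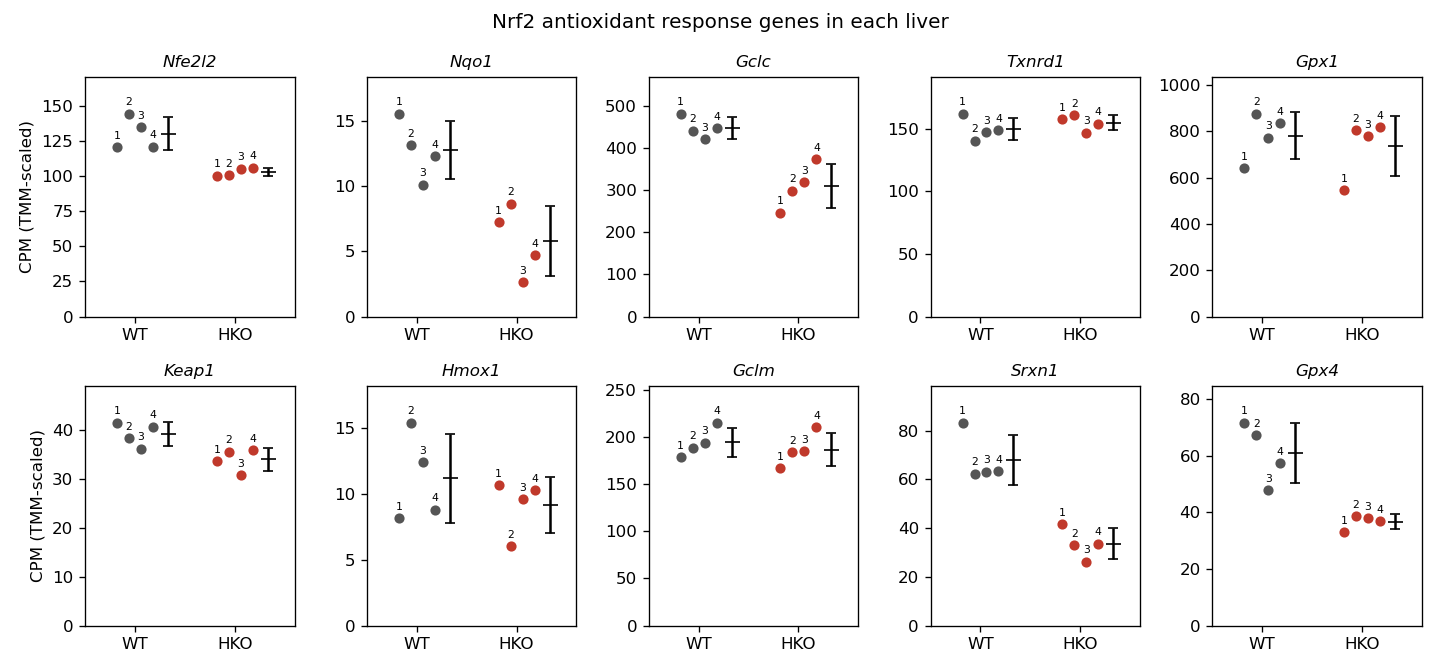
Level of each of the 10 genes in each liver, in CPM on a linear axis that starts at 0. Grey points are WT livers and red points HKO livers, numbered by replicate, and the bars show mean and SD (n = 4). The groups are apart for Nfe2l2, Keap1, Nqo1, Gclc, Srxn1 and Gpx4 and overlap for Hmox1, Gclm, Txnrd1 and Gpx1.

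Compared per length of the longest annotated transcript, the members covered a wide range in WT livers. Gpx1, the cytosolic peroxidase that reduces hydrogen peroxide with glutathione, had the highest level at 729 CPM per kb (598 to 817), followed by Gclc at 130.95 CPM per kb (123 to 141). Gpx4 at 61.3 CPM per kb (48.0 to 72.0) and Nfe2l2 at 52.7 CPM per kb (48.7 to 58.4) overlapped between livers. Txnrd1 and Srxn1 came next, at 41.3 and 24.2 CPM per kb, with ranges that did not touch (38.8 to 44.7 and 22.2 to 29.6). Gclm was left out of this order, because its longest annotated transcript ends at base 122270732 and the counted gene at base 122267215. Keap1 at 10.8, Nqo1 at 8.22 and Hmox1 at 7.15 CPM per kb closed the order, and the range of Nqo1 (6.5 to 10) overlapped that of Hmox1 (5.22 to 9.83) and ended just under the lowest liver of Keap1 (10.008 against 10.018 CPM per kb). In HKO livers Gpx1 again had the highest mean level (687 CPM per kb), and Nqo1 the lowest (3.73 CPM per kb), below Hmox1 (5.83 CPM per kb). The order of Nqo1 and Hmox1 is that of the means. In HKO replicate 2 Nqo1 was above Hmox1 (8.65 against 6.02 CPM).

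Among the regulators, the transcript of Nrf2 itself was lower in HKO livers. Nfe2l2 (chr2:75675513-75704663, minus strand, GRCm38) measured 121, 145, 135 and 121 CPM in WT livers and 100, 101, 105 and 106 CPM in HKO livers. All HKO livers lay close together and below the lowest WT liver. The means were 130 ± 11.7 and 103 ± 3.10 CPM (SD, n = 4), a log2 fold change of -0.34 (SE 0.079, edgeR adjusted p = 0.0334). This call was close to the threshold: with 1 liver left out it held only without WT replicate 4 (adjusted p = 0.0324). Without WT replicate 1, 2 or 3 the edgeR adjusted p was 0.0569, 0.128 and 0.0637, and without HKO replicate 1, 2, 3 or 4 it was 0.0667, 0.0784, 0.0628 and 0.0689. The log2 fold change stayed between -0.37 and -0.28 in these fits.

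Keap1 (chr9:21229730-21239332, minus strand), the adaptor that presents Nrf2 to the Cul3 ubiquitin ligase, measured 41.5, 38.4, 36.2 and 40.7 CPM in WT livers and 33.6, 35.6, 30.8 and 35.9 CPM in HKO livers. The groups did not overlap, by a margin of 36.2 against 35.9 CPM. The log2 fold change of -0.21 (SE 0.084) did not pass the test (edgeR adjusted p = 0.2). The ratio of Nfe2l2 to Keap1 within a liver does not depend on the scaling between libraries. As a log2 ratio of counts it was 1.54, 1.91, 1.90 and 1.57 in WT livers and 1.57, 1.5, 1.77 and 1.56 in HKO livers. The means of 1.73 ± 0.203 and 1.6 ± 0.119 (SD, n = 4) differed by -0.13 with overlapping groups, which a two-sided exact permutation test over livers did not call (p = 0.286).

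Nqo1 (chr8:107388225-107403205, minus strand), the quinone reductase widely used as a readout of Nrf2 activity, had the largest fold change of the 10 genes with all livers included. It measured 15.5, 13.1, 10.1 and 12.3 CPM in WT livers and 7.22, 8.65, 2.65 and 4.68 CPM in HKO livers, from 187 to 203 counts per WT liver and 47 to 112 counts per HKO liver. Every HKO liver was below every WT liver, and the third HKO liver was the lowest. The means were 12.8 ± 2.25 and 5.80 ± 2.66 CPM (SD, n = 4), and the log2 fold change of -1.14 (SE 0.321) missed the threshold in edgeR (adjusted p = 0.084) and passed it in DESeq2 (adjusted p = 0.00372) and limma-voom (adjusted p = 0.0489). Without HKO replicate 3 the log2 fold change was -0.88, smaller than the -0.91 of Srxn1, and edgeR called it (adjusted p = 0.0443), as it did without HKO replicate 2 (-1.40, adjusted p = 0.0424).

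Hmox1 (chr8:75093618-75100593, plus strand), heme oxygenase 1, breaks down heme to biliverdin, iron and carbon monoxide and is also made by macrophages. It measured 8.18, 15.4, 12.4 and 8.81 CPM in WT livers and 10.7, 6.02, 9.64 and 10.3 CPM in HKO livers. The groups overlapped, with the highest value in the second WT liver and the lowest in the second HKO liver. The log2 fold change was -0.29 (SE 0.232, edgeR adjusted p = 0.540). The summed level of 10 Kupffer cell and macrophage markers was 109, 270, 269 and 142.82 CPM in the WT livers and 244, 78.0, 227 and 255 CPM in the HKO livers, so that within each genotype the liver with the lowest Hmox1 also had the lowest marker sum. None of these 10 markers passed the test between genotypes in edgeR, DESeq2 or limma-voom, and 0 had an unadjusted edgeR p under 0.05, and their part in the Hmox1 level was not tested.

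Glutamate cysteine ligase catalyses the first and rate-limiting step of glutathione synthesis. Of its subunits, Gclc was lower in HKO livers and Gclm did not pass the test. Gclc (chr9:77754535-77794489, plus strand), the catalytic subunit, measured 482, 442, 421 and 447 CPM in WT livers and 247, 299, 320 and 375 CPM in HKO livers. Every HKO liver was below every WT liver, and the HKO livers were spread more widely. The means were 448 ± 25.2 and 310 ± 52.8 CPM (SD, n = 4), a log2 fold change of -0.53 (SE 0.115, edgeR adjusted p = 0.0236). The call was lost without WT replicate 1 (adjusted p = 0.0785), WT replicate 2 (adjusted p = 0.0799) or HKO replicate 2 (adjusted p = 0.0587) and held in the other 5 edgeR fits with 1 liver left out. The counts of Gclc were fractional in 8 livers, by up to 0.40 of a count. How many of its reads were divided between genes cannot be read from this remainder.

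Gclm (chr3:122245557-122267215, plus strand), the modifier subunit that lowers the enzyme's need for glutamate, measured 178.98, 188.90, 194.30 and 215.38 CPM in WT livers and 167.35, 184.20, 185.15 and 210.35 CPM in HKO livers. The groups overlapped along almost their whole range, and the log2 fold change was -0.06 (SE 0.090, edgeR adjusted p = 0.787). The log2 ratio of Gclm to Gclc counts was -1.43, -1.23, -1.12 and -1.05 in WT livers and -0.56, -0.70, -0.79 and -0.83 in HKO livers. The HKO livers were all above the WT livers, with means of -0.72 ± 0.120 and -1.21 ± 0.164 (SD, n = 4). The difference of 0.49 gave p = 0.0286 in a two-sided exact permutation test, the smallest p that 4 against 4 livers allow. With the replicate number as a block the exact permutation p was 0.125, the smallest that 4 pairs allow. The blocked test could not give a lower p, and the replicate numbers belong to different mice, so it decides nothing here. In these livers the ratio of the subunits thus differed between genotypes without overlap, by the unblocked test only.

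**Figure D2:**
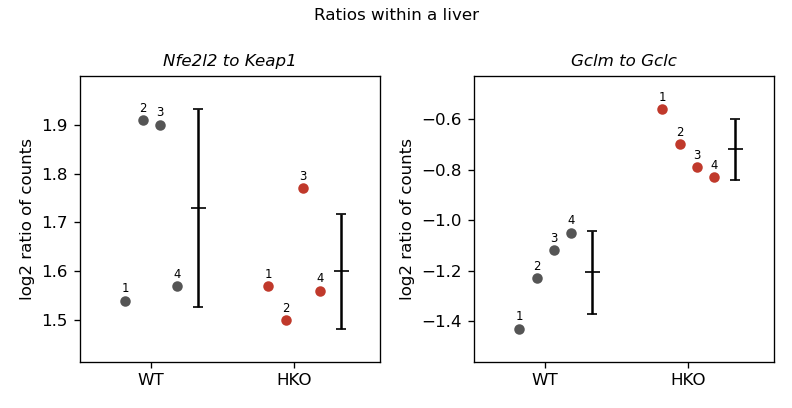
Log2 ratio of counts within each liver for Nfe2l2 to Keap1 and for Gclm to Gclc. Points are livers, numbered by replicate, bars show mean and SD (n = 4), and the axes do not start at 0. The Nfe2l2 to Keap1 ratios overlap between WT (1.54 to 1.91) and HKO livers (1.5 to 1.77), whereas the Gclm to Gclc ratios do not (-1.43 to -1.05 and -0.83 to -0.56).

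Of the thioredoxin and sulfiredoxin genes, Srxn1 was lower and Txnrd1 did not pass the test; the difference between them was not tested. Srxn1 (chr2:152105524-152111376, plus strand) encodes sulfiredoxin, which restores overoxidised peroxiredoxins. It measured 83.2, 62.3, 63.1 and 63.3 CPM in WT livers and 41.5, 33, 26.2 and 33.6 CPM in HKO livers. The highest HKO liver was well below the lowest WT liver. The means were 68.0 ± 10.2 and 33.6 ± 6.26 CPM (SD, n = 4), a log2 fold change of -1.02 (SE 0.142, edgeR adjusted p = 0.00333), and the level fell by 50.6%. Srxn1 was called in 8 of 8 fits with 1 liver left out (edgeR adjusted p = 0.00178 to 0.0145), and the log2 fold change ranged from -1.14 to -0.91. Without WT replicate 1, its highest liver, it was still called.

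Txnrd1 (chr10:82833951-82897724, plus strand), the cytosolic thioredoxin reductase, measured 162, 141, 147 and 149 CPM in WT livers and 158, 161, 147 and 154 CPM in HKO livers. The groups overlapped. The log2 fold change was 0.05 (SE 0.073, edgeR adjusted p = 0.773), and it turned to -0.04 when libraries were scaled by their total counts alone. Txnrd1 overlaps Gm38560 and Eid3 in the annotation, so that reads in the overlap may be assigned to either gene.

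Of the glutathione peroxidases, both selenoproteins, Gpx4 was lower and Gpx1 did not pass the test; the difference between them was not tested. Gpx4 (chr10:80047166-80056439, plus strand) reduces lipid hydroperoxides in membranes and is known as the main barrier to ferroptosis. It measured 71.7, 67.4, 47.7 and 57.3 CPM in WT livers and 32.9, 38.8, 38 and 36.9 CPM in HKO livers. The HKO livers lay within a narrow band below the lowest WT liver. The means were 61 ± 10.7 and 36.7 ± 2.59 CPM (SD, n = 4), a log2 fold change of -0.73 (SE 0.121, edgeR adjusted p = 0.00669), and the level fell by 39.9%. Gpx4 was called in 8 of 8 fits with 1 liver left out (edgeR adjusted p = 0.0026 to 0.0338).

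Gpx1 (chr9:108339080-108340344, plus strand) measured 641, 876, 772 and 836 CPM in WT livers and 545, 805, 779 and 817 CPM in HKO livers. The first liver of each genotype was the lowest, and the remaining livers overlapped. The log2 fold change was -0.09 (SE 0.139, edgeR adjusted p = 0.802), and it was 0.035 without HKO replicate 1. The counts of Gpx1 were fractional in 7 livers, by up to 0.30 of a count.

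**Figure D3:**
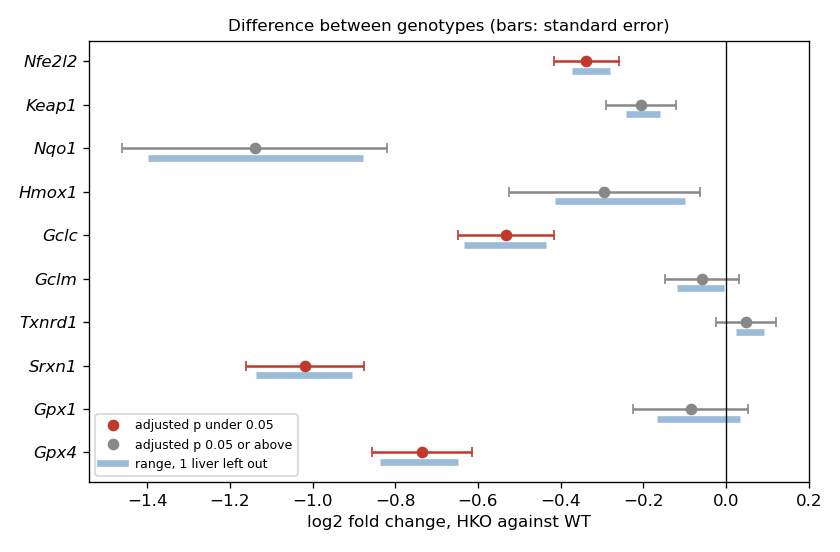
Log2 fold change of HKO against WT livers for the 10 genes, with standard errors from edgeR. Red points passed an adjusted p under 0.05, grey points did not, and the blue bars give the range when 1 liver is left out. Srxn1 (-1.02), Gpx4 (-0.73), Gclc (-0.53) and Nfe2l2 (-0.34) are red, and the blue bar of Gpx1 crosses 0.

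Liver by liver, the members did not fall together to the same extent. Relative to the WT mean, the log2 CPM of Nqo1 stood at -2.2 in HKO replicate 3 and at -0.54 in HKO replicate 2. HKO replicate 3 was also the lowest for Srxn1 (-1.36), whereas HKO replicate 1 was the lowest for Gclc (-0.86) and Gpx4 (-0.87). Nfe2l2 stood between -0.37 and -0.29 in every HKO liver. HKO replicate 1 was its lowest by a small margin (100.34 CPM, against 100.67 CPM in HKO replicate 2). For Srxn1, HKO replicate 1 was the highest HKO liver (-0.70). No HKO liver was the lowest for all of the genes that were called.

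**Figure D4:**
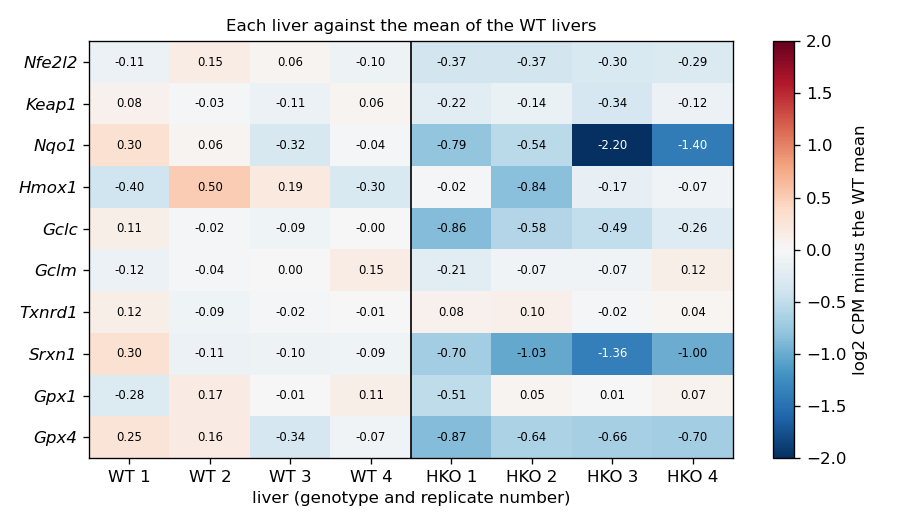
Log2 CPM of each gene in each liver minus the mean of the WT livers, with the value printed in each cell. Columns are livers and rows are genes; blue is lower and red is higher than the WT mean, and the colour scale ends at 2 in each direction. HKO columns are blue in the rows of Nfe2l2, Keap1, Nqo1, Gclc, Srxn1 and Gpx4, with the lowest cell at -2.2 (Nqo1, HKO replicate 3).

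Other genes of the pathway were read from 8 lists that hold 93 different genes, of which 89 were tested. The lists were written with earlier results of these data known, so their shares are not independent of these data. Of the 89 genes, 10 were lower in HKO livers (11.2%, beside 3.37% of all genes) and 0 were higher by edgeR at an adjusted p under 0.05. Their median log2 fold change was -0.12. At an unadjusted p under 0.05 edgeR had 25 lower and 8 higher, where 10.7% and 9.08% of all genes passed. DESeq2 called 20 lower and 3 higher (Prdx4, Sephs2 and Nox4), beside 629 and 385 of the 12365 genes to which it gave an adjusted p. With limma-voom 10 were lower and 0 higher, beside 402 and 206 of 12395 genes. Among 9 genes that control Nrf2 (partners, the Keap1 ligase and competitors), 1 was lower, and the list's median was 0.073. It was Nfe2l1, a related transcription factor that regulates proteasome genes, at 145 ± 15.3 CPM in WT livers against 107 ± 6.64 CPM in HKO livers (SD, n = 4; log2 fold change -0.43, SE 0.090, edgeR adjusted p = 0.0203). It held in 5 of 8 fits with 1 liver left out. The small Maf partners Maff, Mafg and Mafk, and Cul3, Rbx1, Bach1, Bach2 and Sqstm1 did not pass the test. Of the 9 genes, 1 (Nfe2l1) had every HKO liver below every WT liver, as 7.19% of all genes tested did. Another 1 (Bach1) had every HKO liver above, a pattern whose share over all genes was not counted. Bach1 measured 63.9 to 70.5 CPM in WT livers and 73.1 to 80.7 CPM in HKO livers (log2 fold change 0.22, edgeR adjusted p = 0.121).

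Of 29 other Nrf2 target genes, 28 were tested, 7 were lower and 0 higher, beside 3.37% and 1.66% of all genes by edgeR. Of these 28, 24 had a log2 fold change below 0, beside 48.4% of all genes, and the median was -0.49. DESeq2 called 14 of them lower, beside 5.09% of all genes. Ugdh, which makes the UDP-glucuronic acid used in glucuronidation, measured 313 ± 32.8 CPM in WT livers against 162 ± 18.7 CPM in HKO livers (SD, n = 4; log2 fold change -0.95, SE 0.104, edgeR adjusted p = 0.000875). Ephx1, the microsomal epoxide hydrolase, measured 331 ± 42.1 and 169 ± 21.3 CPM (log2 fold change -0.97, SE 0.115, edgeR adjusted p = 0.00126). Aox1, an aldehyde oxidase, measured 117 ± 16.5 and 64.0 ± 12.8 CPM (log2 fold change -0.87, SE 0.147, edgeR adjusted p = 0.00999). These genes were non-overlapping between the genotypes and were called with any 1 liver left out.

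Tkt, the pentose phosphate enzyme transketolase, measured 78.6 ± 14.8 CPM in WT livers against 45.2 ± 5.93 CPM in HKO livers (log2 fold change -0.80, SE 0.139, edgeR adjusted p = 0.00999), and Taldo1, transaldolase, measured 77.5 ± 9.42 and 56.2 ± 4.12 CPM (log2 fold change -0.46, SE 0.098, edgeR adjusted p = 0.0213). Tkt was called in 8 of 8 fits with 1 liver left out and Taldo1 in 5 of 8. Gsta1, a glutathione S-transferase, had the largest fold change of the list. It measured 11.9 to 24.6 CPM in WT livers and 0.169 to 2.83 CPM in HKO livers, the lowest of which is the level of 3 counts (log2 fold change -3.85, SE 0.654, edgeR adjusted p = 0.0233). Its counts were fractional in 8 livers and the near-identical Gsta2 did not pass the test, so the division of reads between them is uncertain. The seventh gene was Gstm4 (log2 fold change -0.81, edgeR adjusted p = 0.0363), named after its values were seen. Without HKO replicate 3 the list had 10 genes called lower, and without WT replicate 1, WT replicate 2 or HKO replicate 4 it had 4.

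Of 10 tested genes of glutathione synthesis and turnover, 2 were lower and 0 higher, beside 3.37% and 1.66% of all genes. Their median log2 fold change was -0.18. Gss, glutathione synthetase, catalyses the step of glutathione synthesis after that of Gclc and Gclm. Gss measured 39.5 ± 3.43 CPM in WT livers against 28.8 ± 1.36 CPM in HKO livers (SD, n = 4, log2 fold change -0.46, SE 0.087, edgeR adjusted p = 0.0136). Ggct, gamma-glutamylcyclotransferase, measured 13.7 ± 1.54 and 8.70 ± 1.64 CPM (log2 fold change -0.65, SE 0.148, edgeR adjusted p = 0.0291). No gene of the list was called lower without WT replicate 2, 1 without WT replicate 1 or HKO replicate 1, 2 or 4, and 3 without WT replicate 3. Chac2 passed as higher without WT replicate 4.

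In the other lists 0 genes passed the threshold in edgeR or limma-voom. DESeq2 called Prdx3 and Gpx3 lower and Prdx4, Sephs2 and Nox4 higher, and the unadjusted edgeR p was under 0.05 for 3 thioredoxin and peroxiredoxin genes, 1 other glutathione peroxidase, 3 selenoprotein genes, 1 NADPH oxidase gene and 0 superoxide dismutase or catalase genes. The 13 thioredoxins and peroxiredoxins had a median log2 fold change of -0.12. Prdx3, the mitochondrial peroxiredoxin, at 146 ± 16.0 CPM in WT livers against 117 ± 5.00 CPM in HKO livers (log2 fold change -0.33, edgeR adjusted p = 0.0585), and Prdx4, that of the endoplasmic reticulum, at 62.9 ± 9.42 and 81.4 ± 4.90 CPM (log2 fold change 0.37, edgeR adjusted p = 0.0686), came nearest, in opposite directions. Sod2 and Sod3 had the lowest p of the 4 superoxide dismutase and catalase genes, with log2 fold changes of -0.09 and -0.22 (edgeR adjusted p = 0.552 and 0.439).

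Of 4 other glutathione peroxidases tested, the lowest p belonged to Gpx3 (log2 fold change -0.86, edgeR adjusted p = 0.0907) and Gpx8 (log2 fold change -0.53, edgeR adjusted p = 0.290), both under 8 CPM in every liver. The 18 genes of other selenoproteins and selenocysteine insertion had a median of -0.025, beside -0.73 for Gpx4 and -0.09 for Gpx1. Sephs2, selenophosphate synthetase, at 1070 ± 129 CPM in WT livers against 1370 ± 149 CPM in HKO livers (log2 fold change 0.36, edgeR adjusted p = 0.0926), and Eefsec, the selenocysteine elongation factor (log2 fold change -0.29, edgeR adjusted p = 0.163), had the lowest p. Among 6 tested NADPH oxidase subunits, which produce superoxide, the median was 0.205, and Nox4 (115 ± 17.6 and 154 ± 24.4 CPM, log2 fold change 0.42, edgeR adjusted p = 0.0940) and Ncf1 (log2 fold change 0.42, edgeR adjusted p = 0.567) had the lowest p.

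**Figure D5:**
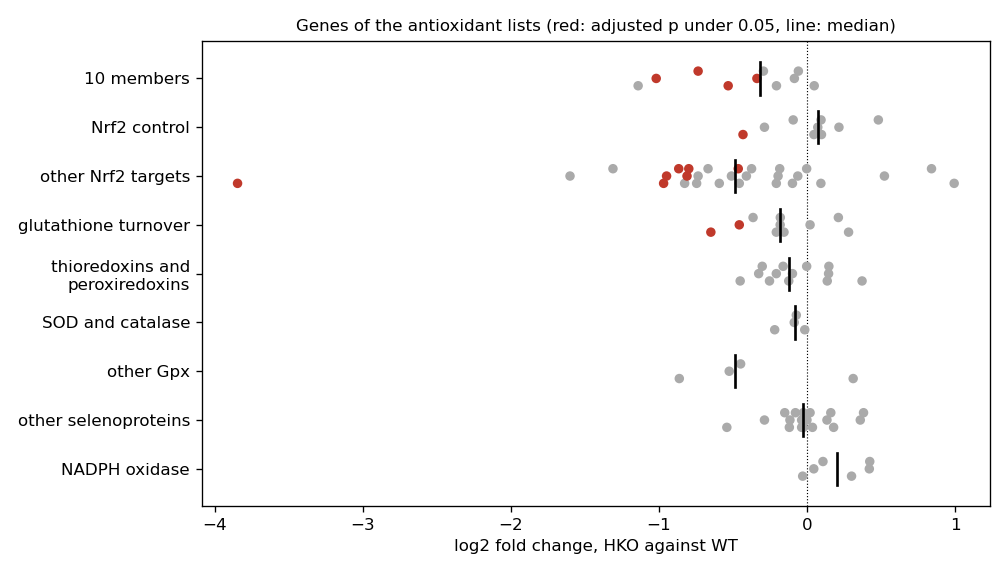
Log2 fold change of HKO against WT livers for the 10 members and for the tested genes of the 8 lists. Each point is a gene, red where the edgeR adjusted p was under 0.05, black lines are medians, and Gsr, Prdx1 and Txn1 stand in more than 1 list. Red points occur for 4 members, 1 control gene, 7 other targets and 2 glutathione genes, all to the left of 0.

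For Nfe2l2 and Gclc, the 3 tested genes with the smallest root mean square difference in centred log2 CPM over the 8 livers were named. They were Acad11, Cradd and Laptm4b for Nfe2l2 (0.042 to 0.051), and Cyp3a25, BC052040 and Tdp1 for Gclc (0.118 to 0.125). The difference between genotypes is part of this measure.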

How the data were processed

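RNA was measured in livers of 4 WT and 4 HKO mice, grouped by the labels. The authors deposited estimated counts per gene, made by Partek's expectation-maximization method and not normalized; the labels name STAR and Partek without versions, and 80.3% of values were whole numbers. Since the labels give a small RNA kit as well as removal of rRNA, the library type is uncertain. Counts were rounded, filtered (minimum count 10), scaled by TMM and tested with edgeR 4.0.16 (quasi-likelihood, robust) in R 4.3.3, with Benjamini-Hochberg adjustment over 12395 genes. Totals of 12174339 to 18735785 counts set the counting error only, and the floor of 3 counts covers that error and not the spread between livers. Ratios used a prior count of 2. Alternatives included limma-voom (limma 3.58.1), DESeq2 1.42.0, other scalings and filters, the legacy edgeR method (chosen after seeing the data), the replicate number as a block and each liver left out. Seed matches used GENCODE vM21 3'UTRs. The members and lists were chosen with earlier results of these data known. All members, up to 6 called genes per list (or, with none, the 2 of lowest p) and 3 like genes per called member were named, except that those of Srxn1 and Gpx4 are not reported here. Coordinates are those listed, which match GRCm38, with the end taken as 1 base before the listed stop. Mir33 itself was not analysed here.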

Additional observations from a re-analysis of the deposited data

Results flagged for a closer look

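In 24 groups of 4 livers (each genotype's values of the 10 members and the 2 ratios), 2 livers lay far from the other 3 of their genotype by Dixon's test, and chance flags about 1 group in 20, or 1.2 groups here. Srxn1 measured 83.2 CPM in WT replicate 1, whereas the other WT livers lay between 62.3 and 63.3 CPM. Gpx1 measured 545 CPM in HKO replicate 1, whereas the other HKO livers lay between 779 and 817 CPM.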

How the results depend on the processing

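Of 170 alternative values for the 10 members (17 per member), 168 kept their direction and 151 also their side of the threshold; 12 lost a call and 5 gained one. Txnrd1 turned to -0.036 under total counts and Gpx1 to 0.035 without HKO replicate 1, neither called; Gpx1 ranged from -0.167 to 0.035 with 1 liver left out. With 1 liver left out, 2 to 4 members and 212 to 598 genes were called, against 4 and 624, the Gclm to Gclc difference was 0.413 to 0.537 and the Nfe2l2 to Keap1 difference -0.192 to -0.068. DESeq2 called 1014 genes. Total counts alone moved the median of all genes by -0.089 and the calls to 119 higher and 621 lower, from 206 and 418. The number of other Nrf2 targets called lower was 6 to 14 over the other settings and 4 to 10 with 1 liver left out. The replicate numbers belong to different mice, and same-numbered livers did not deviate together (correlations -0.148 to 0.0116). With a replicate block 456 genes and 3 members were called (Nqo1, Srxn1 and Gpx4), and the Gclm to Gclc difference of 0.487 had an exact permutation p of 0.125, the smallest that 4 pairs allow. The lowest liver held 47 counts for Nqo1 and 78 for Hmox1.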

Other observations

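Besides the 7 called genes, 7 other Nrf2 targets had every HKO liver below every WT liver (as 7.19% of all genes tested did) without passing edgeR's test, although DESeq2 called them, and they were picked after their values were seen. Fth1 and Ftl1, the ferritin chains that store iron, measured 1810 and 1170 CPM on average in WT livers and 1320 and 880 CPM in HKO livers (edgeR adjusted p = 0.0643 and 0.0581). Me1 and Pgd, which make NADPH, measured 449 and 38 CPM in WT livers and 181 and 22.7 CPM in HKO livers (edgeR adjusted p = 0.0657 and 0.0588). The others were Gstm1, Gstm3 and Abcc3, with log2 fold changes of -0.83, -1.60 and -0.74. In the other direction, Gstp1 measured 280 to 426 CPM in WT livers and 393 to 1220 CPM in HKO livers, and Osgin1 18.8 to 34.6 and 26.9 to 72.3 CPM, and neither passed the test (edgeR adjusted p = 0.206 and 0.237). Counts were fractional in 8 livers for Gstm3, Abcc3 and Gstp1, in 7 for Gstm1, in 6 for Me1 and in 1 for Fth1. How many of their reads were divided between genes is uncertain.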
